A study of Drosophila melanogaster with 2 samples.

Results

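Peaks of chromatin immunoprecipitation followed by sequencing (ChIP-seq) were examined at 10 genes of the Hippo growth-control pathway of Drosophila melanogaster, namely ft, kibra, ex, Mer, hpo, sav, wts, mats, yki and sd, out of 13945 protein-coding genes. For each gene, every peak of 8 deposited lists that overlapped the gene body or 10 kb on either side by at least 1 bp was taken. The genes were selected on the peaks reported near them in these same lists, so counts, signals and ranks at the members are a description and carry no test. The series has 1 group of 2 biological replicates, in which whole embryos 1 day of age, from flies with a transgene for Drgx fused to enhanced green fluorescent protein, were used for precipitation. The description in the labels names an antibody against the fluorescent protein, whereas the antibody field names Drgx, and the description is followed here. The strain carries an insertion that targets Drgx, whose protein is a homeodomain factor of the paired-like class, and chromatin was sheared by sonication. What drives the fusion is not stated in the labels, which name a possible control that is not used here, so no background library stands beside the values. A whole embryo mixes many cell types, so few cells with a strongly bound site and many cells with a weakly bound one cannot be told apart, and peak lists hold no expression values by which the tissue could be checked.

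The Hippo pathway restrains tissue growth. The kinase Hippo, with its scaffold Salvador, activates the kinase Warts, with its cofactor Mats, and Warts phosphorylates the transcriptional coactivator Yorkie and keeps it out of the nucleus. Yorkie that enters the nucleus acts through the DNA-binding protein Scalloped. Upstream, the atypical cadherin Fat and the cortical proteins Kibra, Expanded and Merlin feed into the kinases. In Drosophila ex and kibra are also known targets of Yorkie, a negative feedback loop.

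The authors scored peaks by the irreproducible discovery rate (IDR), which measures how well peak ranks agree between 2 lists, and gave each peak a score of up to 1000. The thresholded lists hold peaks with a score of at least 830, while the ranked lists hold all scored peaks. Both come in 4 versions, for replicate 1, for replicate 2 and as 2 lists made from both replicates, of which the authors named 1 the conservative list. The other, the pooled list, carries the main description, with 8443 peaks against 7909 in the conservative list, 6349 in replicate 1 and 5475 in replicate 2. Each peak also has the authors' signal value, on a scale that the labels and files do not state, so it is used to rank peaks within a list and not as a change between lists. A rank counts from 1 for the highest signal. The lists hold no read counts and the depth of the libraries is unknown.

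The summit sequences of the peaks that the account turns on are given first, as reference sequence, to show leading sites of the genes with most peaks and where the homeodomain words lay. Each is the summit with 50 bp on either side, on the plus strand of the Release 6 reference of RefSeq, whose coordinates match dm6. Capitals mark TAATTA, the homeodomain core, or the paired-class arrangement of TAAT and ATTA separated by 2 bases. The first 3 are the strongest peak of kibra and both leading peaks of ex, the next is the strongest peak inside wts, and the rest are the windows outside exons that hold a homeodomain word.
kibra intron 1, 3R:14715299-14715399: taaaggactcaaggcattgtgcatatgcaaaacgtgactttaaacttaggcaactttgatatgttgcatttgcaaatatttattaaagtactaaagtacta
ex upstream, 2L:427512-427612: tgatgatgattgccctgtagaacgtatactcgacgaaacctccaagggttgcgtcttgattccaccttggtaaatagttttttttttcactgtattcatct
ex intron 3, 2L:442058-442158: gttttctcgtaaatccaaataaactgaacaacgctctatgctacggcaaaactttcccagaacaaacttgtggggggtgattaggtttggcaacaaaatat
wts intron 1, 3R:30805239-30805339: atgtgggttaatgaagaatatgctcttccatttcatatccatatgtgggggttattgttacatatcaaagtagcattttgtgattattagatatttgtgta
ex intron 1, 2L:435604-435704: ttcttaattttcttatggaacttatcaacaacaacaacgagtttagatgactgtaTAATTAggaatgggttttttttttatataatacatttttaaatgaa
ex intron 3, weaker site, 2L:441067-441167: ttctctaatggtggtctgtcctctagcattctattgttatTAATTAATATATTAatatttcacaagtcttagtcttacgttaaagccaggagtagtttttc
ex downstream, 2L:452269-452369: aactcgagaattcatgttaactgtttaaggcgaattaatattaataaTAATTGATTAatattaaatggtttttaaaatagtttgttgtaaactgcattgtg
Mer upstream, X:19695320-19695420: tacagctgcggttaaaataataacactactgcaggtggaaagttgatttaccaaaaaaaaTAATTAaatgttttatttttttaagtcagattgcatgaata
ft upstream, 2L:4223083-4223183: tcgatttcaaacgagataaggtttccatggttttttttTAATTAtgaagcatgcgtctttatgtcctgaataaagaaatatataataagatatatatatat

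All 10 members had at least 1 peak of the pooled list in their window, where 70.4% of all protein-coding genes did. The 10 windows span 322 kb and held 42 pooled peaks, 131 per Mb, and no peak was shared between windows. The whole list has 63.1 per Mb, counted over whole chromosomes and not over gene windows. Over gene windows the median density was 47.8 per Mb for coding genes under 5 kb and 59.1 for those of 15 kb or more. The peaks were unevenly spread. The windows of kibra (12 peaks), wts (11) and ex (7) held 30 of the 42, at 248 per Mb, while the other 7 members held 12, at 59.8 per Mb, close to the whole list. The upstream regulators had 24 peaks over 4 genes, the kinases and their cofactors 16 over 4 genes, and yki and sd 2 together. Within each of the first 2 roles, genes with 7 to 12 peaks stood beside genes with 1 to 3, so these 2 roles did not separate by count. Per Mb of window the upstream regulators had 159 peaks, the kinases and their cofactors 153, and yki and sd 30.4. With 1 peak each, yki and sd had as many as hpo and sav.

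**Figure D1:**
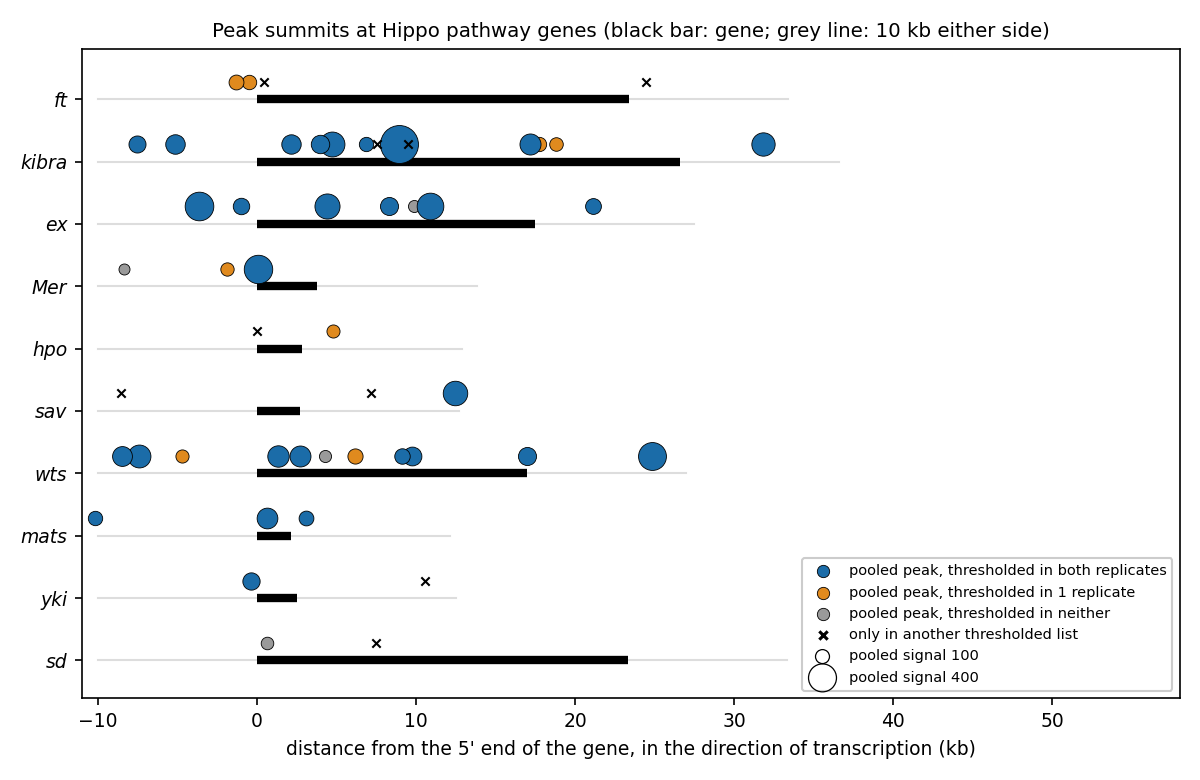
Positions of peak summits at the 10 genes, as the distance in kb from the 5' end of each gene in its direction of transcription. Circle area is proportional to the deposited pooled signal, and colour gives support by the thresholded lists of the replicates. Crosses are sites thresholded only outside the pooled list. The 2 overlapping pooled peaks of kibra are drawn as 1 circle, with the higher signal. Of the 42 pooled peaks kibra, ex and wts carry 30, and sd and hpo 1 each.

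Longer genes have wider windows, so the counts were also read within classes of gene length. Among the 1359 coding genes of 15 kb or more, 80.2% had a pooled peak and the median number was 3, with quartiles of 1 and 6. Of the 5 members of that length, kibra and wts lay above this range and ex at 7 just above it, while ft with 2 lay inside it and sd with 1 at its lower edge. At least 12 peaks, the number at kibra, were found at 7.80% of genes of this length, and at least 11, the number at wts, at 10.4%. The 12 at kibra count 2 overlapping peaks separately, and peaks at all other genes were counted in the same way. The number at ex was reached by 24.5%. Genes under 5 kb, of which there are 10461, had a median of 1 peak, and 67.4% had any. Mer and mats had 3 each, a number reached by 27.0% of genes this short, and hpo, sav and yki had 1 each.

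**Figure D2:**
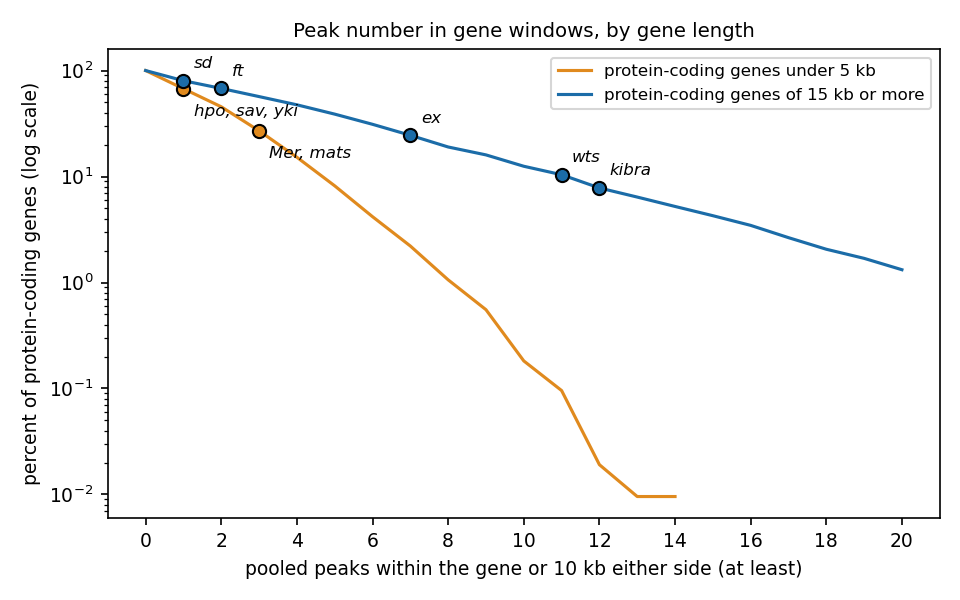
Percent of protein-coding genes (log scale) whose window holds at least the number of pooled peaks on the horizontal axis, as lines for genes under 5 kb and for genes of 15 kb or more, with the members as points at their own number. At kibra 12 peaks correspond to 7.80% of the long genes, and at sd 1 peak corresponds to 80.2%.

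Of the upstream regulators, kibra had the strongest peak of any member. Kibra is a WW-domain scaffold that works with Merlin and Expanded at the cell cortex. The gene (FBgn0262127, 3R:14697689-14724261, minus strand) held 9 of its 12 pooled peaks in the body, all with a summit in its first intron, which is 20.1 kb long. The strongest lay at 3R:14715214-14715526, 8912 bp downstream of the transcription start site (TSS), and its pooled signal was 737 (rank 192 of 8443), beside 421 in replicate 1 (rank 204) and 328 in replicate 2 (rank 173). It stood within the top 2.27% of the pooled list and in the top 3.21% and 3.16% of the lists of replicates 1 and 2. Its summit window, printed first above, holds none of the 6 words searched.

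Other peaks of the kibra intron lay on both sides of this one. At 3R:14719468-14719678, 4692 bp downstream of the TSS, the signal was 317 pooled, 188 in replicate 1 and 138 in replicate 2. At 3R:14707020-14707130 it was 227, 139 and 95.8, with the summit 17179 bp from the TSS and nearer to the start of Meltrin, at 9790 bp. These, and the peaks at 2158 bp (193 pooled), 3936 bp (174) and 6877 bp (105) from the TSS, were thresholded in both replicates. The 3 remaining pooled peaks of the intron had summits 17735 to 18788 bp from the TSS, also nearer to the start of Meltrin. They had a thresholded partner in replicate 1 alone, with signals of 105, 94.4 and 7.51, and the last 2 of these peaks overlap each other. No pooled summit lay within 1000 bp of the kibra TSS. Outside the gene, 1 peak lay in an intron of the neighbour Meltrin (278 pooled, 127 and 147 in the replicates) and 2 at the promoter of CG7530 (195 and 149 pooled), all thresholded in both replicates.

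Expanded is a FERM-domain protein that binds Yorkie and promotes its phosphorylation. Its gene (FBgn0004583, 2L:431227-448701, plus strand) had 7 pooled peaks, and 6 of them were thresholded in both replicates. The strongest was intergenic, at 2L:427425-427669, 3665 bp upstream of the TSS, with a pooled signal of 420.0 (rank 609) beside 202 for replicate 1 and 214 for replicate 2. In intron 3 of the gene a peak at 2L:441996-442214 had 364 pooled, 211 in replicate 1 and 175 in replicate 2. In replicate 1 it was the stronger of the pair. Its summit lay 10881 bp from the ex TSS and 9194 bp from that of the neighbour crq, the nearest coding TSS. The first intron held a peak at 2L:435540-435750 with 323, 190 and 128, whose window carries TAATTA.

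The other ex peaks were weaker. One lay 1000 bp upstream of the TSS (139 pooled) and one at the start of lncRNA:CR43717, a non-coding gene inside intron 3 of ex, with its summit 2 bp from that start (167). A peak at 2L:440925-441308, also in intron 3, had 74.6 in the pooled list and 74.6 in the conservative list and no thresholded partner in either replicate. The ranked lists of the replicates held it with signals of 44.4 and 31.7 and scores of 79 and 430, far under the threshold. This weak site holds TAATTA and the 2-base-spaced arrangement, which overlap there. The downstream peak, at the promoter of the neighbour crq (128 pooled, 82.6 and 48.6), holds the spaced arrangement too.

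Merlin is the Drosophila counterpart of the NF2 tumour suppressor. The peak at its promoter (FBgn0086384, X:19689697-19693500, minus strand), at X:19693285-19693490, had its summit 94 bp downstream of the TSS in the first intron and a signal of 415 pooled (rank 626), 250 in replicate 1 and 142 in replicate 2. The summit fell on the same base in both replicates. It was the strongest promoter peak of the members. The other 2 pooled peaks of the window lay at the promoters of CG14229 (90.9, thresholded in replicate 2 alone) and Tcs4 (62.4, thresholded in neither).

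Fat is the atypical cadherin receptor at the top of the pathway. Its gene (FBgn0001075, 2L:4198404-4221796, minus strand) is 23393 bp long and had no pooled peak in the body. Both pooled peaks lay just upstream, 523 bp (107) and 1337 bp (114) before the TSS. They were thresholded in replicate 1, with 83.1 and 56.2, and not in replicate 2, whose ranked list held them with 35.4 and 58.1 and scores of 769 and 777. Replicate 2 had no thresholded peak anywhere in the ft window. The conservative list added a peak 444 bp downstream of the TSS (27.99), and replicate 1 added one at the promoter of the neighbour Naprt (46.6).

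Among the kinases and their cofactors, wts had most of the peaks. The gene (FBgn0011739, 3R:30789625-30806619, minus strand) encodes the kinase that phosphorylates Yorkie, and 7 of its 11 pooled peaks overlapped the body. The strongest of these lay in the first intron, 1330 bp downstream of the TSS at 3R:30805097-30805480, with 235 pooled (rank 1634), 146 in replicate 1 and 77.6 in replicate 2. A second first-intron peak 2736 bp from the TSS had 225, 150 and 63.7. Another peak of the intron, 4284 bp from the TSS, had 75.4 and was thresholded in neither replicate.

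Further into wts, the second intron held peaks at 9131 bp (123) and 9723 bp (181) from the TSS, both thresholded in both replicates. A summit in the 5' untranslated region 6135 bp from the TSS had 118 and a partner in replicate 1 alone. At the far end, a summit in the 3' untranslated region had 167 pooled, with 77.5 for replicate 1 and 101.45 for replicate 2. The strongest peak of the window, at 3R:30781663-30781871 with 398 pooled (rank 675), 212 and 176, lay in an intron of the neighbour zfh1, a zinc-finger homeodomain gene, and its nearest TSS is that of zfh1 at 1453 bp. Another 3 lay in introns of the neighbour cindr, with 268, 201.17 and 88.7.

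Salvador is the WW-domain scaffold of Hippo. The single pooled peak in its window (FBgn0053193, 3R:23058609-23061304, minus strand) had 308 (rank 1081), 177 in replicate 1 and 120 in replicate 2. It lay at the edge of the window, 12477 bp beyond the TSS and 613 bp from the start of CG17121, so sav was without a pooled peak when the flanks were cut to 5 kb. A further peak at the promoter of p53 was thresholded in the conservative list alone (88.3, score 962), and its score in the pooled ranked list was 730. Replicate 2 alone had one 8515 bp upstream of sav (48.4).

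Mats is the cofactor that activates Warts. Its gene (FBgn0038965, 3R:22421161-22423302, plus strand) had a peak in the first intron, at 3R:22421744-22421853, 487 bp from the nearer of its 2 start sites, with 220 pooled (rank 1816), 127 in replicate 1 and 71.4 in replicate 2. The summits of the replicates were 4 bp apart. The other peaks lay at the promoters of pinta (112, 66.7 and 52.5) and CG13850 (106, 68.1 and 41.6), and all 3 were thresholded in both replicates. The peak at CG13850 reached only the edge of the window, and its summit lay outside.

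Hippo is the upstream kinase, and its gene (FBgn0261456, 2R:19493996-19496856, minus strand) had a different peak in each list made from both replicates. The pooled list had one at the promoter of the neighbour Rep, 4803 bp from the hpo TSS (87.8, rank 6199), which was thresholded in replicate 1 (63.2) and not in replicate 2. The conservative list lacked it, as its score there was 682, and had instead a peak 15 bp upstream of the hpo TSS (66.5, score 860). That promoter peak had a score of 424 in the pooled ranked list, 624 in replicate 1 and 175 in replicate 2. Neither replicate had a thresholded peak at the hpo promoter, and replicate 2 had none in the window.

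Yorkie is the coactivator on which the kinases act. Its gene (FBgn0034970, 2R:24065975-24068485, minus strand) had 1 pooled peak, at 2R:24068686-24069069, 393 bp upstream of the TSS, with 153 (rank 3044), 86.7 in replicate 1 and 44.8 in replicate 2. The summit lay closer to the start of the neighbour Gpat4, at 121 bp, than to that of yki. In replicate 2 the peak ranked 4813 of 5475, in the weakest part of the list. The conservative list added a peak at the promoter of eEF5, 10575 bp from the yki TSS (97.8, score 966), whose score in the pooled ranked list was 88.

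Scalloped is the TEAD-family protein that brings Yorkie to DNA. The gene (FBgn0003345, X:15804370-15827682, plus strand) is 23313 bp long with 7 annotated start sites, and its window was the sparsest of the 10, with 23.1 pooled peaks per Mb. The single pooled peak, at X:15804788-15805171 in a 5' untranslated region 527 bp from a start site, had 80.9 (rank 6738) and was thresholded in neither replicate, with scores of 81 and 77 in their ranked lists. A different site, 257 bp upstream of another start site, was thresholded in the conservative list (81.6) and in replicate 2 (46.8). It scored 757 in the pooled ranked list and 641 in replicate 1. Replicate 1 had no thresholded peak in the sd window.

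**Figure D3:**
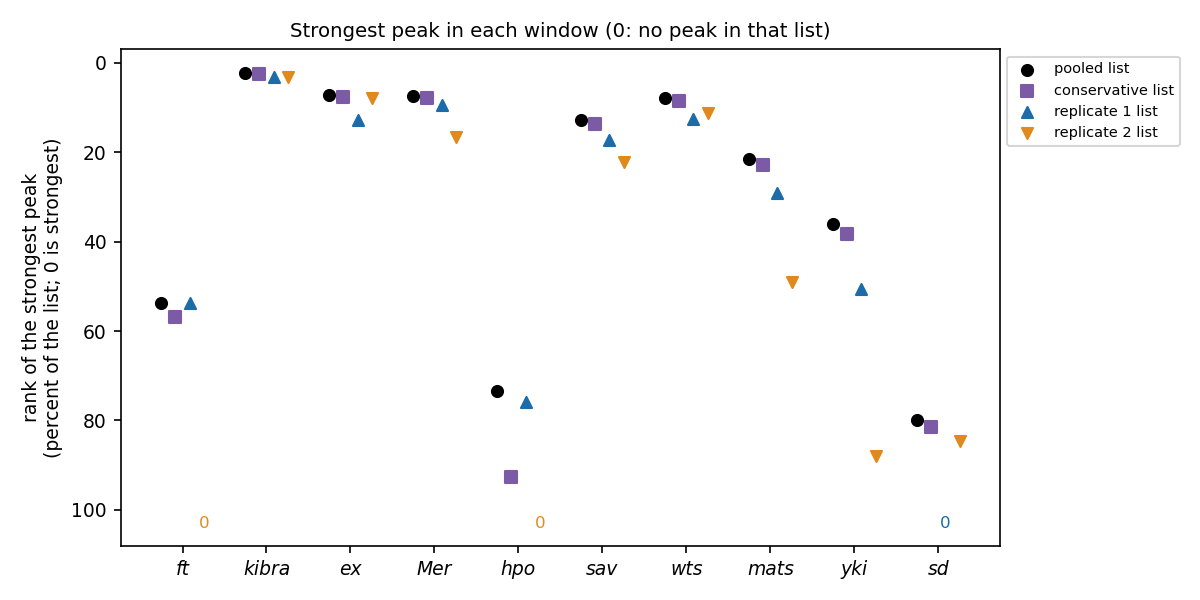
Rank of the strongest peak in each gene's window as a percent of the list (vertical axis, strongest at the top), for the 4 thresholded lists; a 0 at the bottom marks a list with no peak. For kibra all 4 lists place the peak within the top 3.21%, and replicate 2 had no peak at ft or hpo and replicate 1 none at sd.

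By rank of the strongest peak in the pooled list the order was kibra (2.27% from the top), ex (7.21%), Mer (7.41%), wts (7.99%), sav (12.8%), mats (21.5%), yki (36.1%), ft (53.8%), hpo (73.4%) and sd (79.8%). For sav, wts, hpo and yki this peak lay nearer to the start of a neighbouring gene (CG17121, zfh1, Rep and Gpat4) than to the member's own. In the replicates kibra came first in both, and the order below it changed. Replicate 1 put Mer (9.47%) before wts (12.7%), ex (12.8%) and sav (17.4%), with mats at 29.1%, yki at 50.5%, ft at 53.7% and hpo at 75.9%. Replicate 2 put ex (7.80%) before wts (11.2%), Mer (16.7%) and sav (22.3%), with mats at 49.1%. There sd (84.6%), last in the pooled order, stood before yki (87.9%). Against the pooled list, ex and wts in replicate 1 and Mer, sav, mats and yki in replicate 2 stood more than 1.5 times farther from the top. At ft and ex in replicate 1 and at sd in replicate 2 the strongest peak was a different one from that of the pooled list. The ranked lists had peaks at all 10 members, from 22 to 59 in the pooled ranked list, where the median over all coding genes was 26. With 22 and 25, hpo and yki lay under that median. Per Mb of window, wts had 1541 ranked peaks, kibra 1267, ft 1267 and sd 1039. The whole list had 722 per Mb, but this is counted over whole chromosomes and not over gene windows. All 10 members exceeded it, also hpo (962) and yki (1111), whose counts were under the median, so it sets no member apart.

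Replicate support was 29 of 42 peaks (69.0%), where 51.1% of all pooled peaks overlapped a thresholded peak of both replicates. Of the other 13, 8 had a partner in replicate 1 alone, 1 in replicate 2 alone and 4 in neither. Member peaks also had a higher median signal than the pooled list, 160 against 120. All 26 member peaks above the list's median signal were among the 29. Support at members and in the list was not compared at like signal. The windows of kibra, ex and wts held 23 of the 29. At least 1 such peak was found at 7 of the 10 members, against 53.4% of coding genes, and ft, hpo and sd had none. Any thresholded peak was present in the replicate 1 list at 9 members (64.2% of coding genes), in the replicate 2 list at 8 (59.9%) and in the conservative list at 10 (69.3%). Across the 29 shared member peaks the signals of the replicates had a Spearman's rho of 0.824, and across all 4313 shared pooled peaks 0.793, given as a description since the peaks share 2 libraries. Summits of the replicates lay a median of 17 bp apart at members and 22 bp over all shared peaks.

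**Figure D4:**
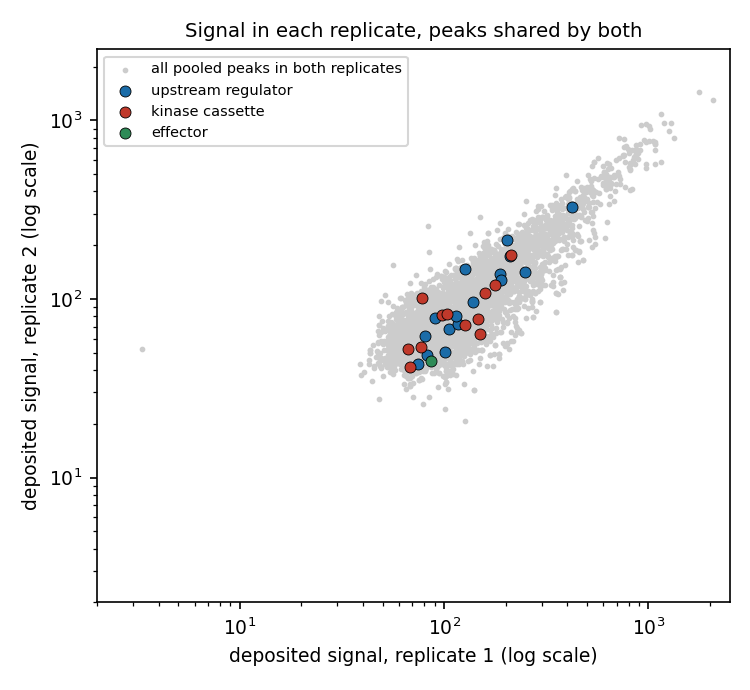
Deposited signal in replicate 1 (horizontal) and replicate 2 (vertical), both on log scales, for pooled peaks thresholded in both replicates: grey points are all 4313 and coloured points the 29 at members, by role. The scale of the signal is not stated, so only the order of peaks can be read; Spearman's rho is 0.824 over the 29 and 0.793 over the 4313.

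Merging overlapping peaks of the 4 thresholded lists gave 50 sites in the windows, of which 29 were in all 4 lists, 7 in 3, 4 in 2 and 10 in 1. Of these sites, 9 had no pooled peak, and the pooled ranked list held each of them with a score between 88 and 764. Pooled peaks below the highest score of 1000 were those of Mer near Tcs4 (886), wts in cindr (921) and ex in intron 3 (973). The rest had 1000, weak ones such as that of sd (80.9) included. The share of the whole pooled list with that score was not computed, so it does not set the members apart. Just under the threshold were peaks of the Mer window at X:19691079-19691462 (score 827, signal 65.7) and X:19684151-19684534 (806, 59.3), another of 806 with a signal of 2.68, and one of the sd window at X:15802937-15803320 (789, 68.0).

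Of the 42 summits 22 lay in introns (52.4%, against 45% of the whole pooled list), 12 at a promoter (28.6% against 36.8%), 5 between genes (11.9% against 14.6%), 2 in 5' untranslated regions and 1 in a 3' untranslated region. A promoter here is the 500 bp on either side of any gene's TSS. Peaks overlapped the gene body at 6 members (kibra, ex, Mer, wts, mats and sd), against 22.8% of all coding genes, a share that is 13.2% for genes under 5 kb and 64.4% for those of 15 kb or more. A summit lay within 1000 bp of the member's own TSS at ft, ex, Mer, mats, yki and sd, 6 of 10 against 25.2% of coding genes. That share is not split by gene length or by number of start sites, of which sd has 7. At Mer, mats and yki a summit lay within 500 bp, for which no share of coding genes was computed, and that of yki was nearer to Gpat4. The genes with the most peaks, kibra and wts, had none within 1000 bp. For 21 of the 42 peaks the nearest coding TSS was the member's own. The matching share over the windows of all coding genes was not computed, so this count cannot be called high or low.

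Summit windows of the members were AT-rich, with a median of 31.7% G and C (22.8 to 56.4%) against 34.7% over the pooled list. TAATTA was found in 6 of the 42 windows (14.3%), at ex (2 peaks), Mer, ft, hpo and sd, and in 7.97% of all pooled windows. The arrangement of TAAT and ATTA separated by 2 bases was found in 2, both at ex (4.76% against 1.07%), and that with 3 bases in none (1.39% of all windows). CATTCCA, the site of Scalloped and its mammalian TEAD relatives, GAGAGAG, bound by the GAGA factor, and GGTCACAC, bound by M1BP, were in none of the 42, and in 1.43%, 2.93% and 0.497% of all windows. Both strands were searched and TAATTA may overlap the spaced arrangements. A searched word was found in 7 windows. Of their peaks, that in intron 1 of ex had a signal of 323 and the other 6 had 128 or less, under the member median of 159.78. How the words fall by signal over the whole pooled list was not computed, so this split cannot be called particular to the members. No match says only that these letters are not in the window.

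Other genes of the pathway were described with the same windows, and these lists too were chosen with earlier results of the series known. Of 26 other upstream and core genes 22 had a pooled peak (84.6%), 18 of them with one found in both replicates, where 70.4% and 53.4% of all coding genes did. In this list 9 genes were 15 kb or longer, a class in which 80.2% of genes had a pooled peak. The highest signals were at ds, the cadherin ligand of Fat (733 pooled, 435 and 296 in the replicates, 591 bp from a TSS), Fbxl7, an F-box protein gene acting downstream of Fat (596, 316 and 280), Pez, a phosphatase gene whose product binds Kibra (479, in an intron of PDZ-GEF), and fj, a Golgi kinase gene that modulates Fat and Ds (475). The peaks named for Fbxl7, Pez and fj lay 1319, 13801 and 7770 bp from a TSS of the gene. The ligand gene ds had a stronger peak than its receptor gene ft by rank (196 against 4544), and 11 pooled peaks against 2 in a gene of 74971 bp. Zyx, Tao, l(2)gl and Git had no pooled peak, and msn, a kinase gene, had the most with 17.

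All 14 genes of nuclear partners had a pooled peak, 13 of them with one found in both replicates, and 7 were 15 kb or longer. The shares over all coding genes are again 70.4% and 53.4%, and 80.2% of genes of that length had a pooled peak. They were led by the Brahma complex genes osa (1778 pooled) and brm (908), by Trl (1726), which encodes the GAGA factor, and by Wbp2 (660), whose product binds Yorkie and whose strongest peak lay 6905 bp from its TSS. The strongest peaks of osa, Trl and brm lay 13924, 1543 and 134 bp from a TSS of the gene. Of 14 target genes of Yorkie 12 had a pooled peak (85.7%), each with one found in both replicates, and here too 7 were 15 kb or longer. The strongest were at mir-ban, the bantam microRNA gene (844, 436 and 403), the growth regulator Myc (726, 412 and 312), the caspase inhibitor gene Diap1 (625, 387 and 210, 675 bp from a TSS) and vn, an EGF receptor ligand gene (606). The peaks named for mir-ban, Myc and vn lay 5576, 8758 and 11211 bp from a TSS of the gene. Diap1 had 12 pooled peaks, as many as kibra, in a gene of 12625 bp, and upd1 and upd2 had no pooled peak. The genes fj and E2f1 stand in 2 of the lists.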

How the data were processed

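The 8 peak lists were made by the authors from alignments to dm6 and further files whose content is not stated, per the deposited readme texts. Aligner, peak caller and their versions: not given in the sources used here. Each list holds the authors' score, which reaches 1000, a deposited signal value, a deposited −log10 q value, which was not used, and the summit offset. A ranked list was tied to the thresholded list whose peaks it contains.

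Coordinates are 1-based. Genes came from Ensembl release 115 and sequence from the Release 6 reference assembly, within whose chromosome lengths all peaks lie. Overlaps were counted with Python 3.11.15, pandas 2.3.3, NumPy 2.4.6 and SciPy 1.17.1, with overlap counting tested on simulated intervals. Introns are numbered on the member transcript of largest exonic length. Replicate support means an overlap of at least 1 bp with a thresholded peak. Signals of 1 value per library are given without an SD.

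The members and lists were chosen with earlier results of these data known, and no test was made. Named were every member, its strongest pooled peak and those in its body or within 1000 bp of its TSS, and up to 4 genes of each other list by signal; genes beyond this (msn, and those with no peak) were named after their values were seen. In the annotation d is named dachs and Par-1 is named par-1. The length classes were set after the members' lengths were seen.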

Additional observations from a re-analysis of the deposited data

How the results depend on the processing

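The 5 counts of members and their peaks and the counts of words were recomputed with other lists, windows or definitions, and 33 of 37 such values stayed within 1.5 times the main count. Another 38 values, for the ranks of the strongest peaks and the percent of coding genes with a peak, were recomputed too. More than 1.5 times farther from the top were ex and wts in replicate 1 and Mer, sav, mats and yki in replicate 2. For yki the rank went from 36.1% to 87.9%. The other recomputed ranks and the percents of coding genes stayed within 1.5 times the main value. Each rank is that of the strongest peak in the list used, which was not always the same peak. It was a different one at hpo and sd in the conservative list, at ft and ex in replicate 1, and at sd in replicate 2. No rank exists for ft and hpo in replicate 2 or for sd in replicate 1, where no peak was thresholded. The split among genes, the annotation classes, the merged sites and the other pathway lists were not recomputed. The 42 peaks in member windows became 26 among the pooled peaks with a signal above the list's median, by fewer peaks, and 64 with 20 kb on either side, by wider windows. Of the 10 members 7 had a peak with a signal above that median, against 54.3% of coding genes. Members with a summit near their own TSS went from 6 to 3 when the limit was 500 bp. GAGAGAG, in 0 windows of 50 bp on either side of the summit, was in 1 with 100 bp on either side. Leaving out a replicate gave 8 to 9 members with a peak, 33 to 39 peaks, 5 members with a summit within 1000 bp of a TSS, and 5 to 6 with a peak in the body. Peaks found in both replicates numbered 21 to 36 over the other settings, against 29. No paired analysis was possible because the series has 1 group and no result comes from a test. Depth is unknown, and its part in the peaks missing from 1 replicate at ft, hpo and sd was not tested.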
